A study of Mus musculus with 10 samples.

Results

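Mucins and the genes that drive their synthesis in goblet cells were compared between normal mouse lung and lung squamous cell carcinoma (SCC). The group comprised 9 genes: the gel-forming mucins Muc5ac and Muc5b, the membrane-anchored mucins Muc1, Muc4, Muc16 and Muc20, the mucin-folding enzyme Agr2, and the transcription factors Spdef and Foxa3. Probes were taken by gene symbol, paired with the accession that the scanner files give for each probe, and where a gene had several probes, that of highest mean over the 10 arrays was used. Of the 9 genes, 8 had a probe, 12 probes in all, out of 19096 genes with a symbol on the array. No probe was paired with Muc16, which is not analysed here.

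RNA came from 5 lungs of wild type (Lkb1f/f) mice, called WT, and from 5 SCCs of CCSPiCreLkb1f/f mice, with 1 Agilent single-colour array per sample. All samples were labelled as 13 months old and strain B6.129. Both groups thus carried the floxed Lkb1 alleles, and the SCC mice also carried the Cre recombinase driven by the promoter of CCSP, the club cell secretory protein of the airway epithelium. Whole lung was set against whole tumour, so fewer cells of a type and less RNA per cell cannot be told apart. The labels do not state that each array came from a different mouse, and p-values measure only the spread between these samples.

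Mucins are large glycoproteins with long stretches of O-linked sugars. Gel-forming mucins are stored in granules of goblet and gland cells and make up the mucus gel when secreted, whereas membrane-anchored mucins cover the surface of epithelial cells and carry short cytoplasmic tails. Muc5b is the main gel-forming mucin of the mouse airway at rest, and Muc5ac is known to increase with goblet cell metaplasia. Agr2 is a protein disulphide isomerase of the endoplasmic reticulum, Spdef is an ETS-family factor of goblet cell differentiation, and Foxa3 is a forkhead factor that is induced in goblet cell metaplasia.

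The stretches upstream of Agr2, Spdef, Foxa3 and Muc1 are shown because these genes shared the same highest SCC array, and that of Muc20 because it was lowest on that array. RefSeq promoters (build GRCm38.p6) were found for 7 of the 9 genes, and the 250 bases before each start are printed 5′ to 3′ on the gene's strand. Agr2 (chr12:35992675-35992924) and Muc1 (chr3:89228806-89229055) lie on the plus strand, and Spdef (chr17:27728952-27729201), Foxa3 (chr7:19023540-19023789) and Muc20 (chr16:32797436-32797685) lie on the minus strand. Capitals mark matches on either strand to the forkhead-type words TGTTTAC and TGTTTGC, the ETS-type word CCGGAT or the TATA box word TATAAA.

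Agr2: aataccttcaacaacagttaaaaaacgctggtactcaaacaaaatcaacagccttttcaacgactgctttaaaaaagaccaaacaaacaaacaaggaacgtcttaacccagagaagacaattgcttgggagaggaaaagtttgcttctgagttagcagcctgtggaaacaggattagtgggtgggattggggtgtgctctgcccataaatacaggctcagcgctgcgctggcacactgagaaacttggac
Spdef: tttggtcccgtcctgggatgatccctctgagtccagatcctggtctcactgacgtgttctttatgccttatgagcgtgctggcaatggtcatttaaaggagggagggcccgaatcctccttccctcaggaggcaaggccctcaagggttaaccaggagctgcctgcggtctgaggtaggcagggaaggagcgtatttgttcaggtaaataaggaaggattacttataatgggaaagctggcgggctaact
Foxa3: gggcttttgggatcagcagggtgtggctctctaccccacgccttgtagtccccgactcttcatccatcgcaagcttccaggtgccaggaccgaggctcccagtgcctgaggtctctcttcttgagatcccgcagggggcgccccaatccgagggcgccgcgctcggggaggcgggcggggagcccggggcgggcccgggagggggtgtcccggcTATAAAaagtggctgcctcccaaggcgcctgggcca
Muc1: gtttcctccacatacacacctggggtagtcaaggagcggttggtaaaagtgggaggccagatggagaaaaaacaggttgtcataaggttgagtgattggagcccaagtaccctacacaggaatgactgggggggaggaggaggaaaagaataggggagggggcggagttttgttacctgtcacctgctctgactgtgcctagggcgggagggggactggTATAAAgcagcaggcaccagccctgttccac
Muc20: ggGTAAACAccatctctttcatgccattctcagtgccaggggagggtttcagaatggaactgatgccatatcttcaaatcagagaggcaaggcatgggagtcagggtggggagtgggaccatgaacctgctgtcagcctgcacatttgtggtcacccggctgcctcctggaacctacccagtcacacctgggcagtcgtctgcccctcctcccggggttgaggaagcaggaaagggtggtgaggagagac

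The Foxa3 and Muc1 stretches held the TATA box word, with its first base at positions -36 and -31 from the start, and the Muc20 stretch held 1 forkhead-type word on the opposite strand, with its first base at position -248. The Agr2 and Spdef stretches held none of the 4 words. Among the other promoters in the table, Muc4 held the TATA box word, at position -36, and Muc16 held no match. Over all 32851 promoters, TATAAA occurred in 12.4% of the same 250 bases, either forkhead-type word in 7.29% and CCGGAT in 4.94%. The share of G and C was 44.4% upstream of Agr2 and 68.8% upstream of Foxa3, against a median of 52.4% over all promoters. These matches describe letters only.

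The label of the tumours was checked against 6 squamous and basal cell markers, all of which were called higher in SCC. Their mean log2 intensity ran from 4.72 to 5.22 on the WT arrays and from 11.57 to 15.35 on the SCC arrays. Krt6a and Dsg3 among them were not well above background on any WT array and entered the test only through their SCC arrays. Between 71.04% and 74.46% of probes were well above background on 9 arrays, against 90.2% on SCC replicate 5. By the scanner files, slide 1 carried WT replicates 1 to 4, slide 3 carried SCC replicates 4 and 5, and only slide 2 mixed the groups, with WT replicate 5 beside SCC replicates 1 to 3.

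All 8 measured genes were higher in SCC than in WT. A probe was called where limma's Benjamini-Hochberg adjusted p was below 0.05 and the difference at least 2-fold, which held for 3014 of 30374 tested probes in the direction of SCC (9.92%). Of the 8 genes, 7 were well above background on all 10 arrays, and all 7 were called. Their differences had a median of 3.50 log2 units, against -0.090 over all tested probes, and the lowest SCC array lay above the highest WT array in each, a separation found for 16.3% of tested probes in that direction. Foxa3, the eighth, entered the test only through its SCC arrays and adds no support to these counts. For each of the 7, the exact two-sided permutation test over 252 splits of the arrays gave p = 0.00794, the smallest it can give. That value follows from the separation of the groups and is no further support. Every value below is a log2 intensity after quantile normalisation between arrays, and every difference is SCC minus WT in log2 units.

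**Figure D1:**
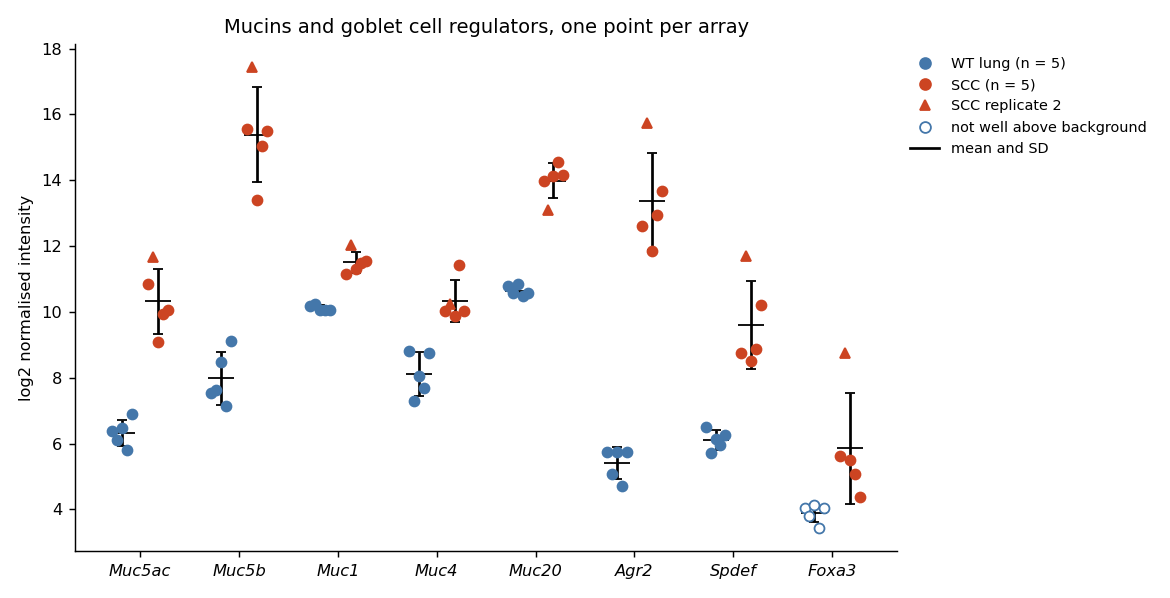
Log2 normalised intensity (vertical axis) of the 8 measured genes, with 1 point per array, 5 WT lungs in blue and 5 SCCs in red, and black bars for the mean and SD. The triangle is SCC replicate 2, which was the highest SCC array for 6 of the 8 genes and the lowest for Muc20, and open points mark Foxa3 in WT, not well above background on any array. Heights of different genes come from different probes and cannot be compared.

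Muc5b showed the larger rise of the gel-forming mucins. Its values in WT replicates 1 to 5 were 7.55, 7.62, 8.49, 7.14 and 9.13. In SCC replicates 1 to 5 they were 15.55, 17.44, 13.40, 15.04 and 15.49. Every SCC array was more than 4 log2 units above the highest WT array, with a gap of 4.27. The difference was 7.40 ± 0.67 (SE, n = 5 per group, limma adjusted p = 2.83e-05), which is 168-fold with a 95% confidence interval of 59.6 to 476.

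Muc5ac was measured by 2 probes that disagreed. For the probe with the higher mean, A_51_P102883, the WT values were 6.37, 6.12, 6.46, 5.81 and 6.89. The SCC values were 10.85, 11.67, 9.10, 9.93 and 10.05, so that the groups were separated by 2.20. The difference was 3.99 ± 0.43 (limma adjusted p = 7.24e-05), or 15.9-fold. The other probe, A_51_P426130, stood at 5.77 to 6.87 in WT and at 5.94 to 6.64 in SCC. Its groups overlapped throughout, with a difference of -0.09, a 95% confidence interval of -0.65 to 0.46 and an adjusted p of 0.778 by limma. Both probes carry the same accession in the scanner files and were well above background on all 10 arrays. The rise of Muc5ac therefore rests on 1 of its 2 probes, and probe sequences were not used here.

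Muc5ac and Muc5b are neighbours in the RefSeq gene order on chromosome 7, with Muc2, the gel-forming mucin of the intestine, next to Muc5ac. Muc2 was not well above background on any WT array and was so on 4 of 5 SCC arrays. Among these was SCC replicate 5, where Muc2 was at 2.40, below every WT value. The dimmest passing signal was 2.14 on that array, on which 90.2% of probes passed, and 3.81 to 4.32 on the others. Muc2 thus met the filter for testing only through SCC replicate 5. Its SCC values of 2.40 to 5.87 spanned the WT range of 3.27 to 4.28, and its difference of 0.70 ± 0.61 did not pass the test (limma adjusted p = 0.36). Muc2 was called, however, with scaling to the 75th percentile (1.34, adjusted p = 0.0256), with array quality weights (1.24, 0.0303) and without SCC replicate 5 (1.22, 0.04), and the difference was 0.35 to 1.22 with 1 array left out.

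Muc1, a membrane mucin with a signalling cytoplasmic tail, had the tightest values of the group. The WT arrays gave 10.17, 10.25, 10.07, 10.07 and 10.05, and the SCC arrays gave 11.16, 12.02, 11.30, 11.50 and 11.54. The groups did not overlap, although the gap between them was only 0.91. The difference was 1.38 ± 0.15 (limma adjusted p = 7.32e-05), or 2.61-fold, and a second probe gave 1.45 ± 0.16.

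Muc4, a large membrane mucin that binds the receptor Erbb2, had a wider spread in both groups. Its WT values were 8.81, 7.30, 8.04, 7.68 and 8.75, and its SCC values 10.04, 10.23, 9.87, 11.44 and 10.02. SCC replicate 4 stood apart above the other SCC arrays, and the groups were separated by 1.05. The difference was 2.20 ± 0.38 (limma adjusted p = 0.00108), or 4.6-fold. The other probes of Muc4 gave 2.35 ± 0.35 and 1.70 ± 0.25, and both were called.

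Muc20, a small membrane mucin that binds the receptor Met, is the neighbour of Muc4 on chromosome 16, and the RefSeq models of the 2 genes overlap. It was at 10.78, 10.56, 10.85, 10.49 and 10.57 in WT and at 13.99, 13.10, 14.13, 14.55 and 14.17 in SCC. SCC replicate 2, the highest array for most of the other genes, was the lowest here. The difference was 3.34 ± 0.23 (limma adjusted p = 7.59e-06), or 10.1-fold with an interval of 7.03 to 14.5.

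Agr2 had the largest difference of the 8 genes in these values, although with the normexp correction that of Muc5b was larger (6.73 against 5.92). WT arrays gave 5.74, 5.08, 5.76, 4.72 and 5.74, whereas SCC arrays gave 12.62, 15.73, 11.84, 12.95 and 13.66. The lowest SCC array was 6.07 above the highest WT array. The difference was 7.95 ± 0.63 (limma adjusted p = 1.4e-05), or 247-fold with an interval of 92.9 to 657, and it was 7.36 without SCC replicate 2. Agr3, the paralogue and RefSeq neighbour of Agr2 on chromosome 12, fell by 1.56 (limma adjusted p = 0.0198), from 8.07 to 9.21 in WT to 5.95 to 8.40 in SCC. Its call was lost with the replicate number as a block (limma adjusted p = 0.0664) and with slide as a term (0.139). Agr3 is known from ciliated cells, and the mean of 6 ciliated cell markers ran from 9.49 to 11.04 in WT and from 8.19 to 10.46 in SCC, with 1 of the 6, Tekt1, called lower. That share is near the 13% of all tested probes called lower. The part of ciliated cells in the fall of Agr3 was not tested.

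Spdef values were 6.49, 5.70, 6.14, 5.95 and 6.26 in WT. The SCC arrays gave 8.76, 11.69, 8.51, 8.87 and 10.22, with replicates 2 and 5 above the other three. The difference was 3.50 ± 0.56 (limma adjusted p = 0.000712), or 11.3-fold, and the groups were 2.02 apart.

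Foxa3 gave the least secure difference. On no WT array was its probe well above background, with values of 4.05, 3.79, 4.13, 3.44 and 4.03. On all 5 SCC arrays it was, at 5.61, 8.75, 5.49, 5.07 and 4.37. The lowest SCC value, from the array on which 90.2% of probes passed that criterion, was only 0.24 above the highest WT value. Against the floor of the WT arrays, Foxa3 was at least 3.41-fold higher in SCC, where the floor averages, over WT arrays, the dimmest signal that still passed the background criterion (or the Foxa3 signal, if brighter). That bound rests on SCC replicate 2, and was 2.06-fold without it. The fitted difference was 1.97 ± 0.70 (limma adjusted p = 0.0393) and became 1.25 without SCC replicate 2 (adjusted p = 0.00317). The call was lost when any WT replicate, SCC replicate 1 or SCC replicate 3 was left out, with adjusted p up to 0.0812, and it was kept without SCC replicate 2, 4 or 5.

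**Figure D2:**
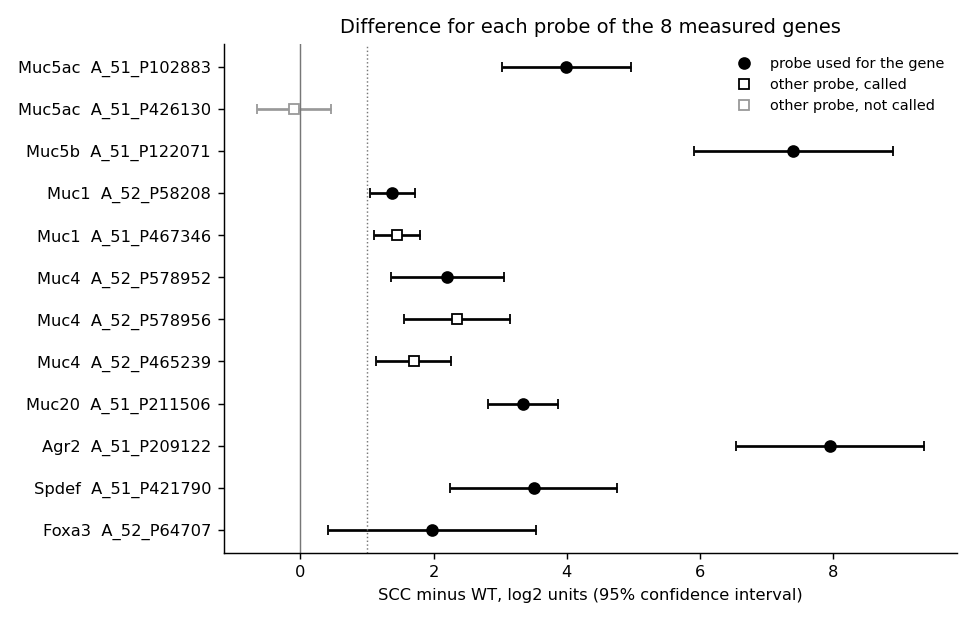
Difference between SCC and WT in log2 units (horizontal axis) with its 95% confidence interval for all 12 probes (n = 5 per group). Circles are the probes used for each gene and squares the other probes, the dotted line marks 2-fold, and the grey square is the second Muc5ac probe at -0.09, the only 1 of the 12 that was not called.

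Slide and group overlapped in part, since slide 1 held only WT and slide 3 only SCC. Within slide 2, 1 WT array against 3 SCC arrays, all 8 differences were positive, at 1.44 for Muc1, 1.30 for Muc4, 3.17 for Muc20, 3.65 for Muc5ac, 6.33 for Muc5b, 7.65 for Agr2, 3.39 for Spdef and 2.59 for Foxa3. With slide as a term in the fit, which rests on those 4 arrays, 5 of the 8 genes remained called and Muc4 (adjusted p = 0.219), Spdef (0.0913) and Foxa3 (0.169) did not. Another background correction, normexp with an offset of 50, lowered the difference to 5.92 for Agr2, 6.73 for Muc5b, 2.86 for Muc5ac, 2.38 for Spdef and 0.59 for Foxa3, and ended the call only for Foxa3.

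The SD among the tumours was larger than that among the lungs for 7 of the 8 genes, Muc4 being the exception (0.64 in SCC and 0.66 in WT). SCC replicate 2 was the highest of the 5 SCC arrays for Muc1, Muc5ac, Muc5b, Agr2, Spdef and Foxa3, which is 6 of 8 genes (75%). Of all probes called higher in SCC, 12.7% had their highest value on this array and 71.2% their lowest, while over all tested probes these shares were 38.6% and 27%. SCC replicate 3 was the lowest for 5 of the 8, namely Muc4, Muc5ac, Muc5b, Agr2 and Spdef, against 6.02% of probes called higher and 14.8% of all tested probes. As the 8 genes were measured on the same arrays, they are not independent of each other, and no test was made.

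Relative to the mean of the other 4 SCC arrays, SCC replicate 2 was higher by 3.62 for Foxa3, 2.96 for Agr2, 2.60 for Spdef, 2.57 for Muc5b, 1.69 for Muc5ac and 0.64 for Muc1. For Muc20 it was lower, at -1.11, and for Muc4 it was at -0.11. The same array was lowest of the SCCs for all 6 squamous and basal cell markers, at -1.95 for keratin 5 (Krt5), -2.94 for Krt14 and -1.03 for Trp63, although each stayed far above the WT range. It was also lowest for all 6 tested neutrophil markers, and highest for 5 of 5 club cell markers and 7 of 8 alveolar type 2 cell markers. The club cell marker mean was 17.18 on this array and 15.57 to 16.63 on the other SCC arrays, against 16.88 to 17.35 in WT, and the alveolar type 2 mean was 15.31 against 14.71 to 14.85, with 15.36 to 15.51 in WT. The part of cell composition in the order of the SCC arrays was not tested.

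**Figure D3:**
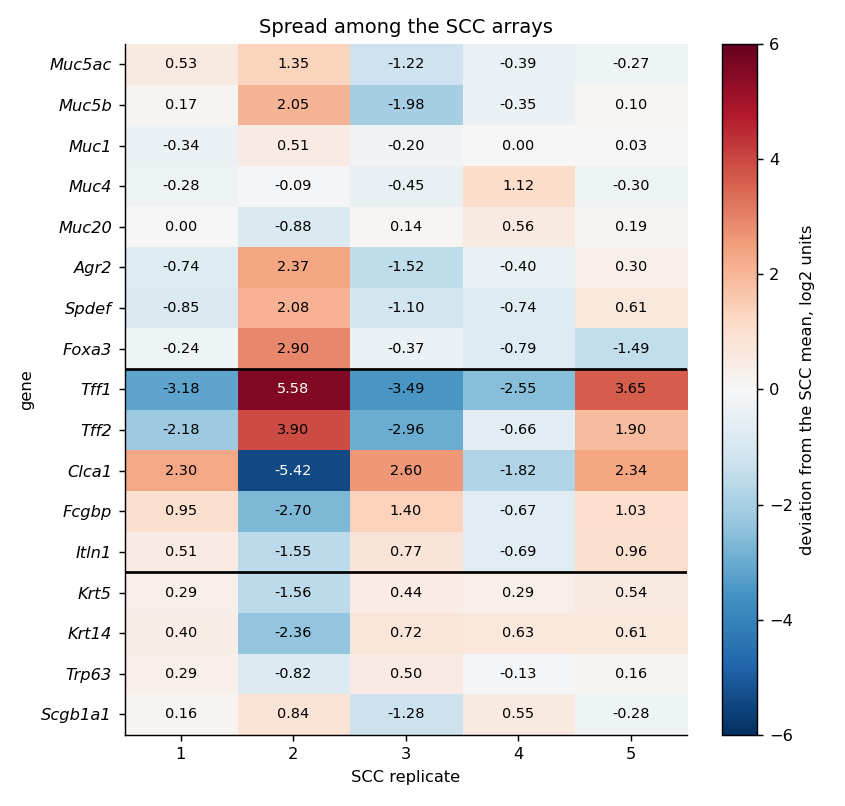
Deviation of each SCC array (columns) from the mean of the 5 SCC arrays in log2 units, by colour and printed value, for the 8 measured genes (top block), 5 goblet cell products (middle) and 4 markers of squamous, basal and club cells (bottom). SCC replicate 2 is at 2.37 for Agr2 and 2.08 for Spdef, and at -5.42 for Clca1 and -2.36 for Krt14.

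Patterns within groups were compared by Pearson correlation over the 10 arrays of each value's deviation from its group mean, given as a description because the arrays are shared. Muc5ac and Muc5b moved closely together (r = 0.95), as did Agr2 and Spdef (0.95), and Agr2 correlated with Muc5b at 0.88. Muc20 ran against 6 of the other genes, with r from -0.58 to -0.84, and Muc4 was near 0 with most, between 0.00 and 0.37. Among 15512 other genes, the closest pattern to Agr2 was that of Adgrg1 (r = 0.99), followed by Scnn1b (0.98). For Spdef these were Myo1a (0.99), a brush border myosin, and Lgals4 (0.98), a galectin of the digestive tract. For Muc5b they were Ip6k2 (0.98) and Abcg5 (0.97), for Muc5ac Mapk1ip1 (0.98) and Rgma (0.97), for Foxa3 Fbxl4 and Bicd1 (both 0.99), for Muc20 Gnai2 (0.99) and Ehd1 (0.98), for Muc4 Neurl1a (0.98) and Elof1 (0.96), and for Muc1 Homer2 (0.96) and Dap (0.95). Without SCC replicate 2 these 16 correlations lay between 0.84 and 0.98. A like pattern did not mean a like difference between groups, since Scnn1b was lower in SCC by 1.88 (limma adjusted p = 3.82e-05) while Agr2 was higher.

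Around these genes, 95 further genes in 6 lists were followed, of which 88 had a probe and 82 were tested. Of the 82, 41 were called, 35 higher and 6 lower, against 22.9% of all tested probes called in either direction and 13% called lower. The median difference of the 82 was 0.78. Clca1, Clca2, Retnlb, Tff2, Gcnt3 and Muc15, all called higher, entered the test only through their SCC arrays and add no support to these counts. Among probes well above background on all 10 arrays, 34 of 73 list genes were called, 28 higher and 6 lower, against 5316 of 26657 probes. With slide as a term 24 of the 82 were called, and among the genes named below the call was then lost for Clca1, Clca2, Tff1, Tff2, Fcgbp, Itln1, Chil4, Bpifb1, Agr3, Galnt18, Foxa1, Ern2, Egfr, Lgals3 and Muc15. All of these kept their direction in that fit. For several the difference was about as large, such as 6.99 for Tff1, 2.44 for Fcgbp, 2.26 for Itln1 and 2.24 for Ern2. It was larger for some, such as Agr3 (-2.27) and Chil4 (2.36), and smaller for others, such as Bpifb1 (2.70), Tff2 (7.60) and Foxa1 (0.89). The normexp correction ended the calls of Ern2 and Muc15 and lowered the differences to 5.22 for Tff1 and 1.27 for B3gnt3. For Clca1 and Gcnt3, not well above background in WT, it gave fitted values of 5.65 and 2.42, which are no bounds. Bounds below hold for the quantile-normalised processed intensities only.

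**Figure D4:**
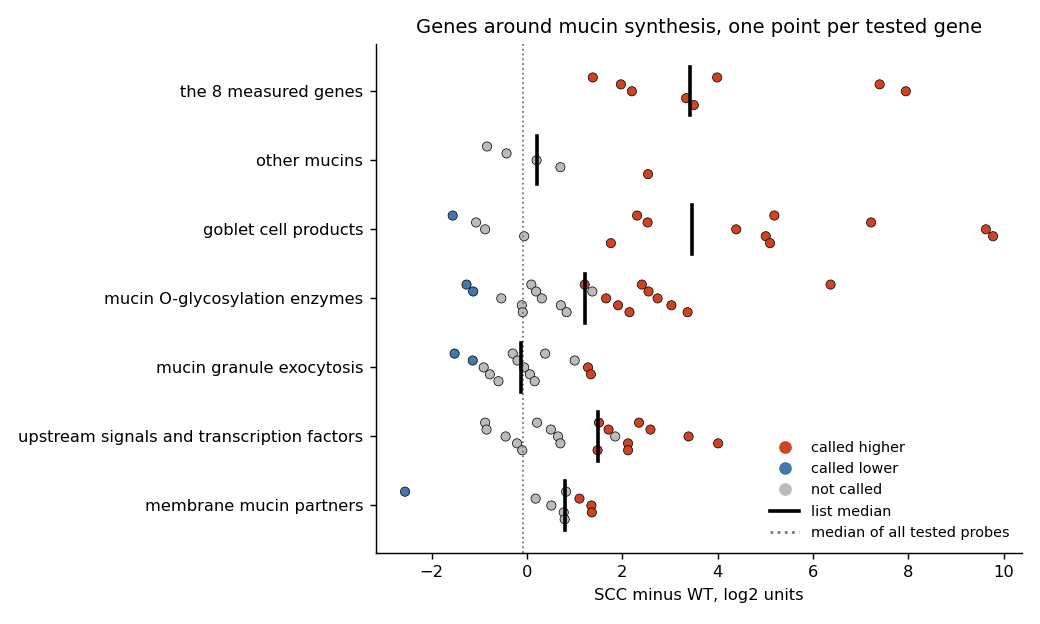
Difference between SCC and WT in log2 units (horizontal axis) for the 8 measured genes and the tested genes of 6 lists, with 1 point per gene, red for called higher, blue for called lower and grey for not called. The black bar is the list median, from 3.46 for goblet cell products to -0.13 for granule exocytosis, and the dotted line is the median of all tested probes, -0.090.

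Most genes listed as goblet cell products were higher in SCC. The list is not specific to goblet cells, as Agr3 is known from ciliated cells and Bpifb1 is also among the gland markers below. Of 14 tested, 10 were called higher, 1, Agr3, lower and 3 were not called, with a list median of 3.46. Clca1, Clca2, Retnlb and Tff2 entered the test only through their SCC arrays and add no support to this count or median. The other genes called higher, Tff1, Fcgbp, Itln1, Retnla, Bpifb1 and Chil4, were well above background on all 10 arrays. Clca1, a secreted protein of goblet cells that acts on mucus, was not well above background on any WT array and was at 14.58, 6.86, 14.88, 10.47 and 14.63 in SCC, at least 304-fold higher (limma adjusted p = 0.000446). That bound was 777-fold without SCC replicate 2 and 194-fold to 416-fold without 1 of the other SCC arrays. The trefoil factor Tff2, a peptide secreted with mucus, went from 2.34 to 5.87 in WT to 10.93 to 17.79 in SCC, a difference of 9.63 ± 1.27 (adjusted p = 0.000231 by limma) that became 8.65 without SCC replicate 2 and 10.37 at most with 1 array left out. Only 2 of the 5 WT arrays were well above background for Tff2, and with WT values raised to the floor of their array the difference was 9.31. Tff1 was at 9.13, 17.89, 8.83, 9.77 and 15.96 in SCC and at 4.83 to 5.34 in WT. Its difference was 7.22 ± 1.73 (limma adjusted p = 0.00682) and became 5.83 without SCC replicate 2 and 8.09 at most with 1 array left out.

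The listed goblet cell products thus did not share an order among the tumours. Tff1 and Tff2 were highest on SCC replicate 2, as Agr2 and Spdef were, whereas Clca1, Clca2, Fcgbp, Itln1, Retnla and Chil4 were lowest there. Retnlb was lowest on SCC replicate 5 and Bpifb1 on SCC replicate 4. Of all probes called higher in SCC, 71.2% were lowest on SCC replicate 2 and 12.7% highest, so a lowest value there is common. Fcgbp, a mucus-associated protein, was at 7.89 on that array, just below the WT range of 7.94 to 8.26, and at 9.92 to 11.99 on the other SCC arrays. Its difference was 2.53 (limma adjusted p = 0.0134), and 3.20 without SCC replicate 2. Tff3 was not tested, being well above background on 3 SCC arrays and 1 WT array, with values of 5.20, 10.83, 2.50, 2.11 and 8.46 in SCC replicates 1 to 5 against 2.15 to 4.33 in WT, so that replicates 3 and 4 did not exceed WT. These genes other than Clca1, Tff1 and Tff2 were chosen after their values were seen.

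Enzymes that build O-linked sugars were called higher for 10 of 21 tested genes and lower for 2, with a median of 1.21. Gcnt3, which makes branched core structures of mucin sugars, was not well above background in any WT array and was at 7.67 to 9.82 in SCC, at least 28.3-fold higher (limma adjusted p = 3.88e-06). As it entered the test only through its SCC arrays, Gcnt3 adds no support to the count. Galnt12, which places the initial sugar on the protein, rose by 3.37 ± 0.17 and B3gnt3, which extends the sugar chains, by 3.03 ± 0.20. The lower genes were St6galnac2, at -1.27, and Galnt18, at -1.13. The other St6galnac2 probe was at -0.79, short of 2-fold (limma adjusted p = 0.00243).

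Genes of granule exocytosis did not move in a common direction. Of 14 tested, the small GTPases of secretory granules Rab3d (1.34 ± 0.14) and Rab27a (1.28 ± 0.20) were called higher. Unc13d (-1.14 ± 0.095), which primes granules, was among the 2 called lower, and the list median was -0.13. These 4 calls of 14 are a share near the 22.9% of all tested probes. The count depends on the choice of probe. Vamp2 (-0.78) and Stx3 (0.16) were not called, but for each another probe was called lower (-1.18 and -1.06). Rab3d, Rab27a and Unc13d each had a limma adjusted p of 0.000532 or less.

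Of the 19 upstream signals and transcription factors, all of them tested, 9 were called higher and none lower, with a median of 1.48, while 14 of the 19 differences were positive. The largest rises were in the epithelial ETS factors Elf3 (4.01 ± 0.22) and Ehf (3.39 ± 0.14) and in Sox2 (2.59 ± 0.30), a factor of airway and squamous epithelium. Among the forkhead factors, Foxa1 rose by 1.48 (limma adjusted p = 0.00043), while Foxa2, known to restrain goblet cell metaplasia in the lung, was at -0.85 (adjusted p = 0.0444), short of 2-fold. Foxa2 was called lower only without SCC replicate 2 among the left-out arrays (-1.16, adjusted p = 0.000164 by limma), while leaving out any other array took its adjusted p to between 0.0653 and 0.0937. It was also called lower without SCC replicates 2 and 5 together (-1.23) and with array quality weights (-1.07), and was at -0.84 with slide as a term (adjusted p = 0.404). Ern2, the stress sensor of mucous cells, and Creb3l4 were highest on SCC replicate 2, at 10.13 and 13.55, and next highest on replicate 5, the order also seen for Agr2 and Spdef. Ern2 was called higher (2.12, limma adjusted p = 0.022) and Creb3l4 was not (1.85, adjusted p = 0.0611). Without SCC replicate 2 these became 1.48 for Ern2 and 1.12 for Creb3l4, the latter then called (adjusted p = 0.0297), as it also was without SCC replicate 3 (2.17) or 4 (2.16). The difference for Il13, the cytokine that induces goblet cell metaplasia, was -0.10 (limma adjusted p = 0.831). Il13 was dim, at 4.34 to 4.79 in WT and 3.00 to 5.29 in SCC. The dimmest signals that passed the background criterion were 3.81 to 4.32 and 2.14 to 4.31, so its difference says little about a change. The Il13 receptor chain Il13ra1 rose by 1.71 (limma adjusted p = 4.08e-05) on 1 probe and was at 0.89, short of 2-fold, on another (adjusted p = 0.000423). In this list the genes after Sox2, like Muc2 above, were named for their known role or place with their values already seen.

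Binding partners of membrane mucins were called higher for 3 of 9 tested genes and lower for 1, with a median of 0.79, each gene by its probe of highest mean. By that probe Erbb2, the partner of Muc4, was at 0.82 and Erbb3 at 0.79, both short of 2-fold, whereas the other Erbb2 probe (1.55) and 2 of the 3 other Erbb3 probes (2.18 and 1.21) were called higher, so the count depends on the choice of probe. Met, the partner of Muc20, rose by 1.36 ± 0.15, the galectin Lgals3 by 1.35 ± 0.36 and the receptor Egfr by 1.10 ± 0.27, with limma adjusted p-values of 7.19e-05, 0.0117 and 0.00686. Msln, mesothelin, which binds Muc16, fell by 2.56 ± 0.34 (limma adjusted p = 0.000246). Of 7 mesothelial cell markers, Msln among them, 5 were called lower and 1, Krt19, also a keratin of other epithelia, higher (1.15, limma adjusted p = 0.000659), and the mean of the 7 ran from 11.37 to 11.79 in WT and from 7.65 to 9.19 in SCC. The part of mesothelial cells in the fall of Msln was not tested.

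Of 11 mucins listed outside the 9 genes, 5 were tested and 1 was called, Muc15, a membrane-associated mucin, a share near the 22.9% of all tested probes. It was higher in SCC (2.54 ± 0.67, limma adjusted p = 0.0109), but only 2 of 5 WT arrays were well above background, and with WT values raised to the floor of their array the difference was 1.45. Its lowest SCC value, 4.92, lay just above its highest WT value, 4.90. The median of the 5 was 0.20.

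Markers of mucus-secreting cells of other organs were at mixed levels beside these rises. Of 7 tested intestinal goblet cell markers, 4 were called higher, Clca1, Retnlb, Fcgbp and Itln1, with a mean of 4.96 to 5.27 in WT and 6.44 to 8.72 in SCC. Clca1 and Retnlb, and Tff2 among the gastric markers below, entered the test only through their SCC arrays and add no support to these counts. Of 8 gastric pit and neck cell markers, 3 were tested and 2 of these, Tff1 and Tff2, called higher, with a mean of 5.26 to 6.65 in WT and 9.46 to 15.15 in SCC, and Gkn1, Gkn2 and Pgc were not tested for lack of signal. Gkn2 was nevertheless at 12.98, 8.54 and 10.53 on SCC replicates 2, 4 and 5, against 1.92 to 2.88 in WT. Of 7 tested submucosal gland markers, 5 were called higher, with a mean of 9.02 to 10.37 in WT and 13.66 to 14.81 in SCC. These were Ltf, Dmbt1, Bpifa1, Bpifb1 and Pigr, and the serous gland marker Prb1 was not tested for lack of signal. Lyz1 (-0.38) and Lyz2 (0.23) were not called. Beside each of these marker counts stands the 9.92% of all tested probes that were called higher. The part of glands, or of any other cell type, in the rise of the mucins was not tested.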

How the data were processed

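Gene expression had been measured on 10 single-colour Agilent 4x44K mouse arrays, 5 WT and 5 SCC, grouped by sample title. Per the file headers and labels, the authors extracted spot values with Agilent Feature Extraction (version 12). The deposited scanner files hold processed intensities on a linear scale after background subtraction, with flags, and the deposited matrix holds log2 values, which matched the quantile-normalised processed intensities with r of at least 0.99994 per array. The authors' methods state quantile normalisation, log2 and one-way ANOVA.

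Spots flagged as outliers and control spots were removed, repeated spots averaged, and 41174 probes quantile-normalised on the log2 scale. The 30374 probes well above background on at least 4 of 5 arrays of 1 group were fitted with limma 3.58.1 (R 4.3.3, two-sided, no covariates), tested on simulated data beforehand. Accessions paired 28223 probes (68.5%) with symbols of a RefSeq table (GRCm38.p6). Stk11 (Lkb1) had no probe paired with it and is not analysed here, so deletion was not checked. Array number limits the precision, no probe was saturated, and 113 probes lacked a value on at least 1 array.

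The 9 genes and all lists were chosen with earlier results of these data known. Named were all 9 genes with each probe, the up to 3 called genes per list with the largest absolute difference, genes needed for counts of 5 or fewer, markers beside the results they touch, and the 2 genes most like each of the 8 measured genes in pattern. The values of 1 list gene under this rule are not reported here. For genes with several probes the highest mean was used throughout. Alternatives were other background correction and scaling, the deposited matrix, other filters, slide and replicate blocks, array weights, left-out arrays, the methods' ANOVA and other probes. The check of replicate numbers is given with the alternatives.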

Additional observations from a re-analysis of the deposited data

Results flagged for a closer look

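Within each group of 5 arrays, the distance from an extreme array to the next was divided by the whole range for the 12 probes of the measured genes and 16 genes of the lists. Of 56 such groups, 6 exceeded Dixon's 95% limit, which chance would pass in about 1 in 20 groups. SCC replicate 4 was high for 2 of the 3 Muc4 probes, at 11.44 against 9.87 to 10.23 elsewhere (gap over range 0.771) and at 10.76 against 9.18 to 9.40 (0.861). SCC replicate 2 was high for Foxa3, at 8.75 against 4.37 to 5.61 (0.717). SCC replicate 5 was high for the second Muc5ac probe, A_51_P426130, at 6.64 against 5.94 to 6.11 (0.757), and for B3gnt3, at 8.22 against 7.19 to 7.47 (0.728). This was the array with 90.2% of probes well above background. WT replicate 3 was high for Gcnt3, at 3.38 against 2.22 to 2.30 (0.931), a probe that was not well above background on any WT array.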

How the results depend on the processing

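Differences of Muc1, Muc5b, Muc20 and Agr2 kept their direction and call under every alternative run, as did that of Muc5ac except by its other probe. Leaving out each array in turn gave 7 to 8 called genes, 6385 to 8135 called probes and 39 to 46 called genes of the lists, and moved Foxa3 between 1.25 and 2.34. With slide as a term the calls fell to 5 of the 8 genes, 2989 probes and 24 list genes, because only slide 2 holds both groups, and the differences became 1.30 for Muc4, 3.39 for Spdef and 2.59 for Foxa3. With normexp 3969 probes were called and Foxa3 was at 0.59 (adjusted p = 0.155), and by adjusted p alone 14878 probes passed. Foxa3 kept 1.97 but lost its call with no filter on dim probes (adjusted p = 0.055), with the replicate number as a block (0.0566) and by the methods' ANOVA after Benjamini-Hochberg (0.0649), while its unadjusted p of 0.0331 missed a limit of 0.01 and passed one of 0.05. The other Muc5ac probe gave -0.09. Il13 changed sign to 0.03 with normexp, 0.48 with 75th percentile scaling, 0.18 with array weights, 0.37 without SCC replicates 2 and 5 and lay between -0.32 and 0.25 with 1 array left out, above 0 only without SCC replicate 5. The cause of the normexp, filter, ANOVA and probe differences was not tested. Scaling to the 75th percentile moved the median of all probes from -0.090 to 0.032 and the share of calls that were higher from 43.3% to 53.2%, and all 8 genes stayed called. Replicate numbers did not pair the samples (correlations of same-numbered deviations from -0.1031 to 0.0087, and 0 of 5 WT arrays correlated best with their own number). The block left 7 of 8 genes and 6571 probes called. Signal over background limits Foxa3 and the absent or faint genes of the lists.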
